A study of Drosophila melanogaster with 2 samples.

Results

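For ChIP-seq of ADD1 in Drosophila embryos, the authors listed 30000 regions for both replicates pooled. This list mixes peaks with background, so a region in it is not by itself a binding site. Of these regions, 695 (2.32%) lay at the start sites of noncoding RNA (ncRNA) genes only. A region was a member of this set when its summit, the point of highest signal within the region, lay within 500 bp of an annotated transcript start of a gene of biotype ncRNA and over 500 bp from every protein-coding transcript start. The choice used positions alone and no signal value. The 695 regions bore 572 ncRNA gene names, and 61 of them (8.78%) were among the authors' 2478 optimal regions, the list kept after an irreproducible discovery rate (IDR) threshold. Over all 30000 pooled regions that share was 8.26%.

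The samples were whole embryos, 0 to 14 h old and of both sexes, from flies carrying a stable transgene for CG8290, the protein also named ADD1, with GFP at its C terminus. There was 1 group with 2 biological replicates, numbered 2 and 3, and no strain without the transgene, no GFP-only line and no input sample was analysed here. The labels do not name the promoter that drives the fusion, and they call both samples input controls in a free description while the antibody label names CG8290; the values were treated as ChIP. The lists hold regions and no read counts, so read depth is unknown, and the intervals given here cover the counting of regions or genes only. With 1 group and no control, no test between groups was possible, and values are shown with their intervals and the 2 replicates beside them.

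ADD1 carries an ADD domain, a fold that binds the tail of histone H3, and is known in flies as a partner of heterochromatin protein 1 and of the chromatin remodeller XNP. Noncoding RNA genes are transcribed without giving a protein. In the fly annotation they include long noncoding RNAs (lncRNAs), antisense RNAs that overlap another gene on the opposite strand, microRNA precursors, and host transcripts whose introns are processed into small nucleolar RNAs (snoRNAs). Among the best known are roX1 and roX2, the RNAs of the complex that raises transcription of the single male X chromosome, and Hsromega, a nuclear RNA induced by heat shock. The annotated 5′ end of a microRNA entry is the end of a hairpin or of a mature RNA, not a transcription start.

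The strongest members were at lncRNAs known mainly by a CR number. The signal is the value that the authors' peak caller gave each region. Its scale is not stated, and it is compared here within 1 list at a time. The region at lncRNA:CR31840 (chr2L:14023895-14024294, dm6) had a pooled signal of 1396 and ranked 4 of 30000. The region at lncRNA:CR31044 (chr3R:29214279-29214602), the host transcript of mir-279 and mir-996, had 811 and ranked 24. Between these came lncRNA:CR44339, described with the other ranks further on. A gap followed: the next member, at mir-9378 (chr2L:10751992-10752217), had 439.

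The DNA under these summits is shown for 5 of the 6 strongest optimal members and for the optimal region of each roX gene, since these are the sites that carry the highest or best known signals of the set. Each sequence is the summit base with 100 bases on either side, from the RefSeq dm6 assembly, written 5′ to 3′ on the plus strand. Capitals mark matches, on either strand, to any of the 12 short motifs searched, which are listed with their shares below.
CR31840: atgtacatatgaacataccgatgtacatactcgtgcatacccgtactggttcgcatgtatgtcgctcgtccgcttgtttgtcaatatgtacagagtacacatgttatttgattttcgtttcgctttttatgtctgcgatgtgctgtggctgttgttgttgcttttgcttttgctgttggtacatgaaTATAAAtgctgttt
CR31044: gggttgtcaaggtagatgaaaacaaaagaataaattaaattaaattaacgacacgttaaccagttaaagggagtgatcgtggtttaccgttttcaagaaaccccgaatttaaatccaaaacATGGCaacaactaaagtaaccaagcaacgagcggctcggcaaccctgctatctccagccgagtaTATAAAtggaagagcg
mir-9378: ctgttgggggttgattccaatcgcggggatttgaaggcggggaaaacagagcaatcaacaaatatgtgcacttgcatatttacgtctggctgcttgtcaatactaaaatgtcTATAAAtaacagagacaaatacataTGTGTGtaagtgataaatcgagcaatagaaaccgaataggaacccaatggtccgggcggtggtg
CR44676: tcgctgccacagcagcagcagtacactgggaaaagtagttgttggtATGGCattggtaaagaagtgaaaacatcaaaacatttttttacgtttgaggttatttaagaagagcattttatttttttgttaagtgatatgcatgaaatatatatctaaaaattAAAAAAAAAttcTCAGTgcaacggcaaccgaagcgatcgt
CR45588: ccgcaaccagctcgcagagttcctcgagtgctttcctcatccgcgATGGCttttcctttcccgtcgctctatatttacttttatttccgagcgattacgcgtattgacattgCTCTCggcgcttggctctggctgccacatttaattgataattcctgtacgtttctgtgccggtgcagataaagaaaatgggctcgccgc
roX2: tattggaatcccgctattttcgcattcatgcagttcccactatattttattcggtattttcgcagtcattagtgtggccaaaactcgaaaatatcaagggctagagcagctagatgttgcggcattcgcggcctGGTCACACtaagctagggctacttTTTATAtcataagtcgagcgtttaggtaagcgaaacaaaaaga
roX1: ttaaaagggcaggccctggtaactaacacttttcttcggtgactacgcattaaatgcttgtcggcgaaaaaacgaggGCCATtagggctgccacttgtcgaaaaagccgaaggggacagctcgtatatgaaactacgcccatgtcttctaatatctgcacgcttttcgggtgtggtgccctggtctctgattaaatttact
The windows are chr2L:14023982-14024182 for CR31840, chr3R:29214344-29214544 for CR31044, chr2L:10752014-10752214 for mir-9378, chr3L:19560733-19560933 for CR44676, chr3R:5053710-5053910 for CR45588, chrX:11578942-11579142 for roX2 and chrX:3862373-3862573 for roX1. No single motif is present in all 7. The longest capital run outside the A run is the M1BP motif of roX2, GGTCACAC, an element of fly core promoters bound by the factor M1BP. In CR31044 the TATAAA letters stand on the gene's strand within the span from 40 to 20 bp before the annotated start, the usual place of a TATA box. In the other windows with these letters (CR31840, mir-9378 and roX2) they do not stand in that span.

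The share of members in the optimal list was close to the share over all pooled regions and lay between those of the neighbouring classes. It was 8.78% (95% exact interval 6.78 to 11.1) of the 695 regions at ncRNA starts only, against 16.5% (15.7 to 17.3) of the 7891 regions at protein-coding starts only and 4.97% (4.69 to 5.28) of the 21088 regions within 500 bp of neither. Regions within reach of both kinds of start, 69 of 326, had 21.2% (16.9 to 26). Both replicates gave this order of the first 3 classes when each replicate's own 2478 strongest regions were counted, for which the share over all regions is again 8.26% by construction. In replicate 2 the shares were 10.2%, 18.2% and 4.94%, and in replicate 3 they were 8.32%, 15.7% and 4.99%. As means ± SD over the 2 replicates these are 9.27 ± 1.34%, 17.0 ± 1.78% and 4.97 ± 0.0318%. The class at ncRNA starts made up 2.46% of the optimal list and 2.32% of the pooled list.

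**Figure D1:**
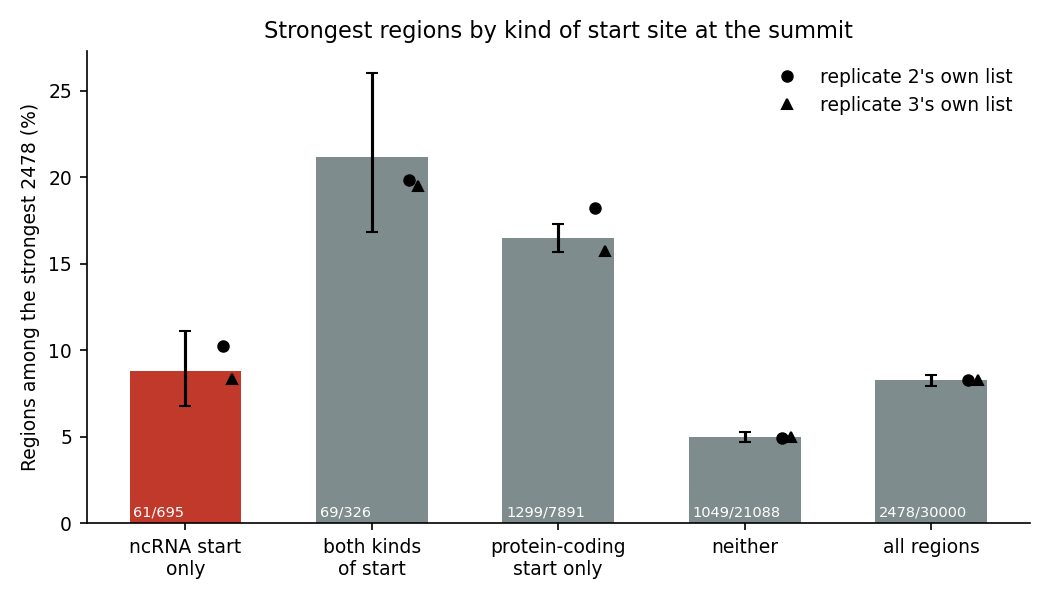
Percentage of regions among the 2478 strongest, by the kind of start site within 500 bp of the summit; bars give the pooled list with 95% exact intervals and counts, and the circle and triangle give each replicate's own list. Regions at ncRNA starts only had 8.78%, below the 16.5% at protein-coding starts only, above the 4.97% at neither, and next to the 8.26% of all regions.

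Signals within the classes had the same order. The optimal list holds the 2478 regions of highest pooled signal, so the shares and these medians describe the same ranking and are not separate results. The median pooled signal was 50.9 for regions at ncRNA starts only (quartiles 39.7 and 77.1, range 33.0 to 1396), against 66.5 for those at protein-coding starts only and 45.9 for those at neither. Once a region was in the optimal list the classes were alike in level: the optimal members had a median of 189, the optimal regions at protein-coding starts only had 184 and those at neither 183. A signal below 200 was found for 33 of the 61 optimal members, and 31 of the 61 were among the 1239 strongest of the optimal list.

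All optimal members had a counterpart in both replicates, which their selection favours: the optimal list was thresholded for agreement between these replicates and holds the regions of highest pooled signal, so the values here are a description. All 61 overlapped a region in each replicate's list, with a median distance between pooled and replicate summits of 10 bp in replicate 2 and 12 bp in replicate 3. Of the 61, 56 had a counterpart among the top 2478 of replicate 2, 48 among those of replicate 3, and 44 in both (72.1%, 59.2 to 82.9), against 67.6% of the optimal regions at protein-coding starts only and 69.8% of those at neither. Of the 634 other members, 514 overlapped a region of replicate 2, 480 one of replicate 3 and 19 neither. Of those 634, 17 (2.68%) reached the strongest 2478 in both replicates. All 17 overlapped a stronger optimal region with which they share the replicate region. Together with the 44 optimal ones, 8.78% of the 695 members reached the strongest 2478 in both replicates, against 7.53% of all pooled regions. In all, 126 of the 634 overlapped a stronger pooled region, so that neighbouring members are not independent. Spearman's rho between the replicate ranks was 0.64 over the 440 members found in both lists and 0.73 over the 61 optimal ones, given as a description across regions of the same 2 samples.

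**Figure D2:**
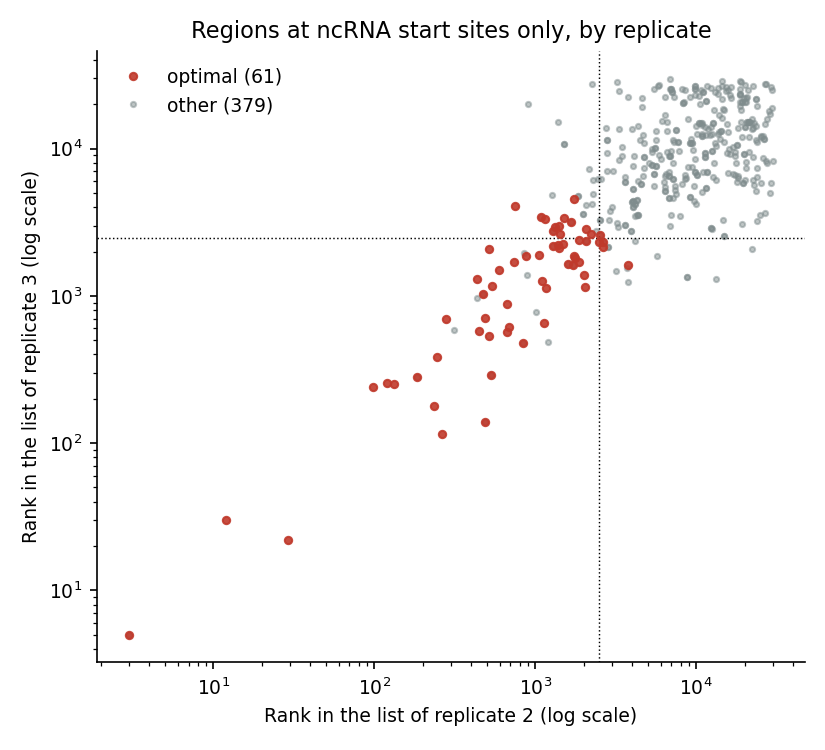
Rank of each member in the list of replicate 2 (x, log scale) and of replicate 3 (y, log scale), with optimal members in red and other members in grey; dotted lines mark rank 2478. Of the 440 members found in both lists, the 61 optimal ones lie toward low ranks in both, with 44 inside both dotted lines, and 3 points at ranks 30 or lower stand apart.

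Ranked by signal, the 12 strongest optimal members were well inside the 2478 strongest regions of both replicates. The region at CR31840 ranked 3 in replicate 2 (signal 737) and 5 in replicate 3 (663); its summit lay 17 bp inside the transcript and 2919 bp from the nearest protein-coding start, that of hll. The region at lncRNA:CR44339 (chr2R:12985044-12985377), with a pooled signal of 855, ranked 12 (signal 486) and 30 (364); its summit lay 167 bp upstream of the RNA's start and 4206 bp from the start of Psc, which encodes a Polycomb group protein. The region at CR31044 ranked 29 (389) and 22 (419), with its summit 118 bp upstream of the start. In all 3 cases both replicates held the region among their 30 strongest, far inside the 2478.

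The next 9 had pooled signals of 439 to 299. They were at mir-9378 (ranks 98 and 241), lncRNA:CR44676 on 3L (119 and 254), lncRNA:CR45588 on 3R (263 and 115), lncRNA:CR43837 on X (133 and 253), lncRNA:CR42657 on X (235 and 178), Uhg4 on 2R (183 and 281), lncRNA:roX2 on X (487 and 138), lncRNA:CR45365 on 2L (244 and 384) and lncRNA:CR43838 on X (527 and 292), each pair giving replicate 2 and then replicate 3. No rank among the 12 was beyond 527 in replicate 2 or 384 in replicate 3. Their surroundings varied. CR43837 and CR42657 lay 631 and 653 bp from the starts of Inx2, a gap junction protein gene, and nej, which encodes the histone acetyltransferase CBP, whereas CR45588 lay 32902 bp from the nearest coding start, that of the chromatin protein gene corto. The mir-9378 region lay inside CG17124, on the same strand as that gene.

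Among the optimal members, the replicates were farthest apart in rank for the antisense RNA asRNA:CR44429, within gce, a juvenile hormone receptor gene. It had rank 750 in replicate 2 (signal 117) and rank 4047 in replicate 3 (56.7), a ratio of 5.40. Next came lncRNA:CR46102, at 516 and 2091 (4.05-fold), and roX2, at 487 and 138 (3.53-fold). CR44429 and CR46102 were stronger in replicate 2 and roX2 was stronger in replicate 3.

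The optimal list holds both roX genes. At roX2 (chrX:11578948-11579117) the pooled signal was 361 (rank 242), with signals of 139 in replicate 2 and 219.6 in replicate 3, and the summit lay 23 bp upstream of the start. At roX1 (chrX:3862251-3862694) it was 141 (rank 2211), with signals of 65.1 in replicate 2 and 74.0 in replicate 3, and the summit lay 48 bp upstream of the nearest annotated transcript start, which is inside the gene, and 224 bp downstream of the gene's 5′ end. The roX1 ranks, 2628 in replicate 2 and 2305 in replicate 3, stood on either side of rank 2478, so this region is near the edge of the list. Each roX start also had a weaker pooled region overlapping the first, with 78.5 at roX2 and 69.3 at roX1. The nearest coding starts were those of nod, 1730 bp from the roX2 summit, and yin, 4244 bp from the roX1 summit.

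The listed genes of known function had pooled regions at their starts more often than ncRNA genes in all. Of 27 textbook names, 24 matched the annotation, 17 of these (70.8%) had a pooled region within 500 bp of a start and 5 (20.8%) had an optimal one, against 29.4% and 4.46% of the 2780 ncRNA genes. The list was drawn up with earlier results of these data known, and the difference was not tested. The 5 were roX1, roX2, Hsromega, Uhg4 and Uhg2. Hsromega had a signal of 174, with rank 1384 in replicate 2 and 2220 in replicate 3, and its summit was 169 bp inside the transcript. Uhg4, which contains 7 snoRNAs, had 371 (chr2R:9095143-9095341) with its summit 20 bp upstream of the start and 595 bp from the start of Boot. The region of another snoRNA host, Uhg2 (191), was also at a protein-coding start and is no member.

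Outside the optimal list were RNaseMRP:RNA, the RNA of a ribosomal RNA processing enzyme (93.8), yar, a sleep regulator (74.5), the snoRNA host Uhg3 (73.2), flam, the source of transposon-silencing piRNAs in ovarian follicle cells (70.1), acal, a dorsal closure gene (61.4), iab8, an RNA of the bithorax complex that carries a homeotic microRNA (61.4), and sphinx, linked to male courtship (53.9). Lower still were let7C, the precursor of let-7, mir-100 and mir-125 (40.6), bxd, of the bithorax complex (36.5), and noe (33.4). Uhg5 (108) and Uhg8 (81.2) had non-optimal regions that were also at protein-coding starts. Some of these pooled regions lacked a counterpart in a replicate. The bxd region overlapped none in either replicate's list. Those of RNaseMRP:RNA, Uhg5 and let7C overlapped none in replicate 2, and those of sphinx and noe none in replicate 3. No pooled region was found at iab4, Uhg1, Uhg7, CRG, RNaseP:RNA or either 7SLRNA gene, the RNA of the signal recognition particle. The names Uhg6, bft and snRNA:7SK did not match an ncRNA gene in the annotation used.

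By kind of RNA, 545 members were at lncRNAs, 78 at antisense RNAs, 56 at microRNA entries and 16 at others, and the optimal shares were similar, with wide intervals. They were 8.81% (48 regions; 6.57 to 11.5) at lncRNAs, 8.97% (7; 3.69 to 17.6) at antisense RNAs, 7.14% (4; 1.98 to 17.3) at microRNA entries and 12.5% (2; 1.55 to 38.4) at the rest, all with intervals that hold the 8.26% of all regions. The 7 antisense RNAs were CR46145 (272), CR46044 (200.7), CR44429 (177), CR44029 (169), CR45908 (151), CR43469 (149) and CR44031 (148). The 4 microRNA entries were mir-9378 (439), mir-9377 (241), mir-4962 (233) and mir-4974 (148), and all 4 summits lay inside a protein-coding gene on the same strand, namely CG17124, Tis11, Tlk and CG8671. In each case the nearest coding start was that of the surrounding gene, for example 5126 bp away in Tis11, an mRNA decay factor gene, and 1336 bp away in Tlk, a chromatin-linked kinase gene.

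A split chosen after the values were seen concerned lncRNAs with a microRNA inside the gene. Of the 26 member regions at such genes, 6 were optimal (23.1%, 8.97 to 43.7), against 42 of 519 (8.09%, 5.89 to 10.8) at lncRNAs without one. The 6 were CR31044 (mir-279 and mir-996; signal 811), CR43626 (mir-282; 219), Hsromega (mir-4951; 174), CR44206 (mir-184; 162), CR43650 (mir-8; 161) and CR43334 (bantam; 142). In flies bantam promotes growth and blocks cell death, mir-8 is the fly member of the miR-200 family, and mir-279 limits the formation of carbon dioxide-sensing neurons. The intervals overlap, and the number of such regions is small. Some genes gave several of them, such as CR43334 and CR43650 with 3 each, so the 26 regions are not independent.

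Where the members lay in relation to coding genes was also recorded. Outside every protein-coding gene body were 409 members, of which 41 were optimal (10%, 7.29 to 13.4). Within a gene on the same strand were 91, of which 9 were optimal (9.89%, 4.62 to 18), and on the opposite strand 192, of which 11 were optimal (5.73%, 2.89 to 10). Genes on both strands covered a further 3, none of them optimal. Among the regions at neither kind of start, 4.54% of the 6385 outside genes and 5.16% of the 14703 inside them were optimal. Optimal members on the opposite strand included asRNA:CR46145 in FER, a tyrosine kinase gene, lncRNA:CR44284 in Rab32, lncRNA:CR46036 in osa, which encodes a subunit of the Brahma remodelling complex, and lncRNA:CR44409 in Dif, an NF-kappaB factor of the immune response. On the same strand stood lncRNA:CR45997 in mbl, a splicing regulator gene, and lncRNA:CR45941 in fz2, a Wingless receptor gene.

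The optimal share of members was much the same at every distance from coding starts, while that of the regions at neither kind of start was lowest far away. Between 500 and 1000 bp from the nearest protein-coding start, 9.02% (11 of 122) of the members were optimal, against 6.68% of regions at neither kind of start. From 1000 to 2000 bp the shares were 8.51% (12 of 141) and 5.85%, from 2000 to 5000 bp 8.76% (17 of 194) and 5.06%, and from 5000 to 10000 bp 6.72% (8 of 119) and 5.43%, members first. Beyond 10000 bp they were 10.9% (13 of 119; 5.95 to 18) and 3.27% (187 of 5714; 2.83 to 3.77), the only one of the 5 bins in which the intervals did not overlap. The 13 included CR45588 near corto, CR43431, 40388 bp from mirr, a homeobox gene of the Iroquois complex, and the host of mir-184 (CR44206, 17057 bp from CG17048). The median distance to a coding start was 2767 bp for optimal members (508 to 40388) and 3042 bp for other members.

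**Figure D3:**
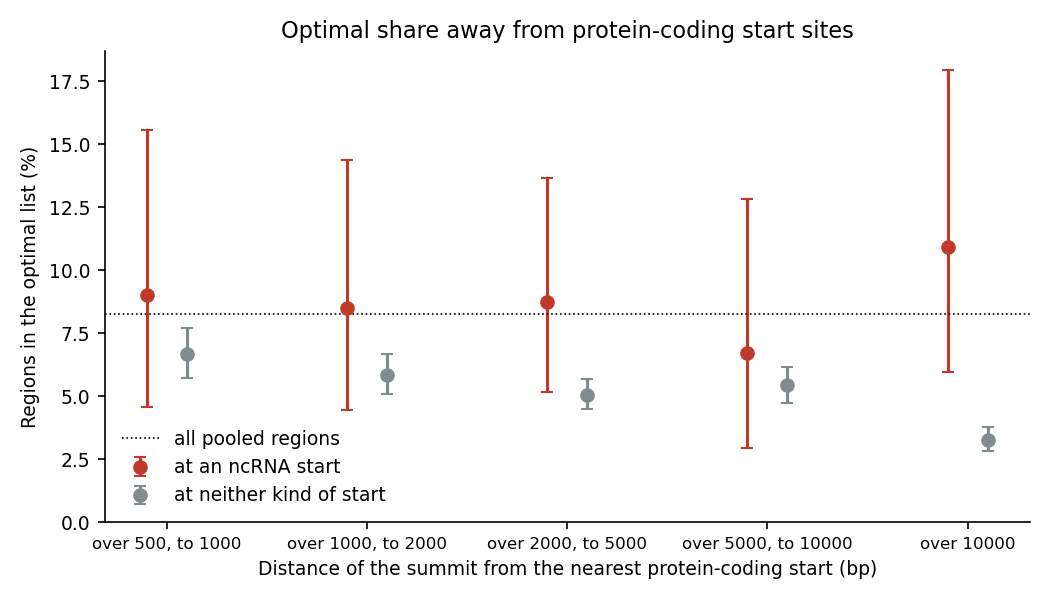
Percentage of pooled regions in the optimal list (y) by distance of the summit from the nearest protein-coding start (x, bp), for members in red and regions at neither kind of start in grey, with 95% exact intervals; the dotted line is the 8.26% of all pooled regions. Members stay between 6.72% and 10.9%, and the intervals are apart only beyond 10000 bp, where regions at neither had 3.27%.

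Summits were spread across the 500 bp on either side of ncRNA starts, unlike summits at protein-coding starts. Of the 61 optimal members, 15 (24.6%, 14.5 to 37.3) had the summit within 99 bp of the start, against 652 of the 1299 optimal regions at protein-coding starts only (50.2%, 47.4 to 53.0). In the last bin, 400 to 500 bp, the shares were 19.7% (10.6 to 31.8) and 4.23% (3.21 to 5.48). The median distance was 204 bp for optimal members and 234.5 bp for other members, and 99 bp for the optimal regions at protein-coding starts only. Protein-coding genes have more annotated starts each (30792 starts for 13986 genes, against 3807 for 3304 ncRNA genes), which shortens the distance to the nearest one; its part in the difference was not tested. The summit was upstream of the nearest start in 32 optimal members and downstream of it in 29. For 7 of the 61 the nearest start was not the gene's 5′ end, and in 6 of these, roX1 among them, the summit was upstream of that start but within the gene.

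**Figure D4:**
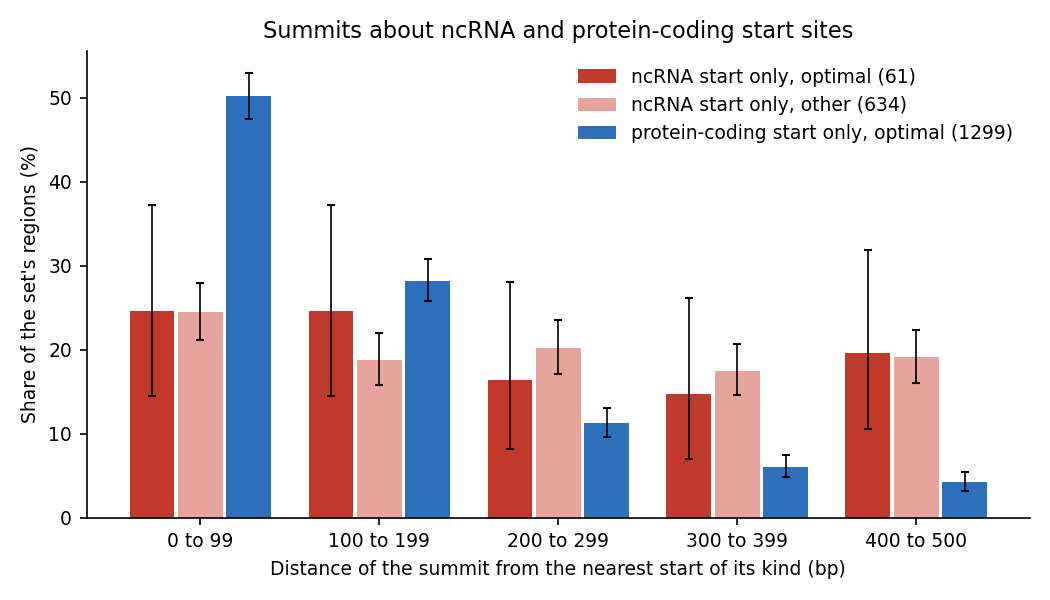
Share of each set's regions (y, %) by distance of the summit from the nearest start of its kind (x, bp), for optimal members, other members and optimal regions at protein-coding starts only, with 95% exact intervals. The first bin holds 24.6% of the optimal members and 50.2% of the optimal regions at protein-coding starts, and the members' bars stay nearly level up to 500 bp.

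The regions right at the limits were outside the optimal list, though optimal members lay nearby. At 500 bp from the RNA start, the last members inside were at lncRNA:CR45640 (60.7) and lncRNA:CR45360 (43.5), and just outside were regions near lncRNA:CR43878 (51.3, at 501 bp) and lncRNA:CR44302 (51.1, at 502 bp). At the limit for coding starts, lncRNA:CR44146 (34.0, 501 bp from vari) and lncRNA:CR44826 (60.5, 502 bp from speck) were just inside, and asRNA:CR45208 (48.4, 500 bp from RASSF8) and lncRNA:CR43148 (36.1, 499 bp from CG2201) just outside. None of these 8 regions was optimal. Of the optimal members near the limits, lncRNA:CR46535 (192) had its summit 492 bp from the RNA start. That of lncRNA:CR44831 (166) was 508 bp from the start of pdgy. At the edge of the optimal list, the weakest members inside were lncRNA:CR45668 (139), lncRNA:CR45941 (138) and lncRNA:CR34335 (134.5), and the strongest outside were at lncRNA:CR44276 (132), lncRNA:CR45325 (131.5), lncRNA:CR44651 (131), lncRNA:CR43144 (130) and lncRNA:CR44888 (129.8). CR44276 and CR43144 each also have a stronger optimal region, of 146 and 248.

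Across chromosome arms, the strongest members were CR31840 on 2L (1396), CR44339 on 2R (855), CR44676 on 3L (416), CR31044 on 3R (811), CR43837 on X (387) and asRNA:CR44029 on the fourth chromosome (169). Of 100 members on X, 14 were optimal (14.0%, 7.87 to 22.4), against 7.85% of all pooled X regions. On the other large arms the member shares were 6.06% on 2L (10 of 165), 8.87% on 2R (11 of 124), 6.34% on 3L (9 of 142) and 10% on 3R (14 of 140), against 8.99%, 7.71%, 8.09% and 9.14% of all regions. On chromosome 4, a small and largely heterochromatic chromosome, 3 of 24 members were optimal (12.5%, 2.66 to 32.4) and 5.71% of all regions were. The 3 were asRNA:CR44029 (169), lncRNA:CR44440 (165) and asRNA:CR44031 (148), and asRNA:CR44029 lay 34 bp from its start within unc-13 on the opposite strand. Every arm's member interval held that arm's share over all regions except X, whose lower bound of 7.87% lay just above 7.85%.

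Counted by gene, ncRNA genes had a region at a start less often than protein-coding genes. Protein-coding genes also have more annotated starts each (30792 starts for 13986 genes, against 3807 for 3304 ncRNA genes). The part of this in the difference was not tested. Of 2780 ncRNA genes on the 6 arms, without the mature microRNA entries, 818 (29.4%) had a pooled region within 500 bp of a start and 124 (4.46%, 3.72 to 5.30) had an optimal one, against 49% and 12.6% (12.0 to 13.1) of 13945 protein-coding genes. Of the 1949 ncRNA genes with every start over 1000 bp from coding starts, 476 (24.4%) had a pooled region and 48 (2.46%, 1.82 to 3.25) an optimal one. Members were found at 594 of the 2780 genes and optimal members at 61 (2.19%). Most gene names, 455 of 572, were given to 1 member, and 117 to more. The most were 4, at lncRNA:CR43302, with signals of 35.9 to 50.9, none of them optimal.

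Optimal members were lower in GC content than other members. Within 100 bp of the summit the median GC content was 38.3% in optimal members (range 25.9 to 53.7) and 43.3% in other members, with 38.3% over all optimal regions and 41.8% over all pooled regions. The optimal members had the median of the optimal list as a whole. None of the 61 summits lay in an annotated transposable element, and among all 2478 optimal regions only 2 did (0.0807%). Of the 634 other members' summits, 8 did (1.26%), against 2.43% of all pooled summits.

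Motifs were searched as exact letters on both strands within 100 bp of the summit, and matches are descriptions of the sequence. Letters common at housekeeping promoters were less frequent in optimal members than in the optimal regions at protein-coding starts only, and for DRE and the BEAF-32 core the intervals of these sets did not overlap at 100 bp. With 50 bp on each side the DRE intervals did overlap (0 to 5.87% in optimal members and 4.36 to 6.93% in the optimal protein-coding set). The DNA replication-related element (DRE), TATCGATA, was in 0 of 61 optimal members, with a 95% exact interval that reaches 5.87%, in 1.26% of other members, in 9.55% (8 to 11.3) of the optimal regions at protein-coding starts only and in 2.30% of all pooled regions. The core letters bound by the insulator protein BEAF-32, CGATA, which lie within the DRE, were in 18% (9.36 to 30) of optimal members, 20.8% of other members, 41.5% (38.8 to 44.2) of the optimal protein-coding set and 25.6% of all regions. GGTCACAC (M1BP) was in 1 optimal member, roX2 (1.64%, 0.0415 to 8.80), in 5.24% (4.09 to 6.59) of the optimal protein-coding set and in 1.80% of all regions. For these 3 motifs, the optimal regions at neither kind of start had 0.667%, 22.0% and 0.667%.

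The other motifs differed less. GAGAG, the letters of GAGA factor, was in 31.1% (19.9 to 44.3) of optimal members, 28.2% of other members, 25.8% of the optimal protein-coding set and 25.5% of all regions. In the same order, GCCAT (Pho, the DNA-binding Polycomb group protein) was in 29.5%, 33.8%, 26.3% and 33.3%, TATAAA in 27.9%, 19.2%, 32.3% and 22.3%, and the initiator letters TCAGT in 36.1%, 31.4%, 30.6% and 29.8%. CACACA, a short CA repeat, was in 19.7%, 23.2%, 17.0% and 19.8%, and a run of 8 A in 11.5%, 9.62%, 10.5% and 10.8%. CAGGTA (Zelda, the activator of the zygotic genome) was in 1.64%, 6.31%, 4.39% and 4.90%. The E-box letters CAGCTG were in 8.20%, 9.78%, 13% and 10.3%, and CACGTG in 3.28%, 2.52%, 3.23% and 2.72%. For each of these 9 motifs the interval of the optimal members held the share over all regions. The same was true of DRE, the BEAF-32 core and M1BP, and so of all 12 motifs. For DRE and the BEAF-32 core, the interval of the optimal protein-coding set lay above the share over all regions. That of the optimal regions at neither kind of start lay below it (0.269 to 1.37% for DRE and 19.55 to 24.65% for the BEAF-32 core). The interval of other members also lay below it for the BEAF-32 core (17.7 to 24.2%), but not for DRE.

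Measured at the RNA start rather than at the summit, core promoter letters were rare. TATAAA on the gene's strand from 40 to 20 bp before the start was found at 1 of 61 starts of optimal members (CR31044) and at 3.86% of 544 starts of other members, against 2.47% of 1254 starts of the optimal protein-coding set. TCAGT within 10 bp of the start was found at 3 of 61 (4.92%, 1.03 to 13.7), namely CR45365, CR43334 and CR31044, and at 5.51% of other members' starts, against 10.1% (8.44 to 11.9) of the optimal protein-coding set. CR31044 had both.

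**Figure D5:**
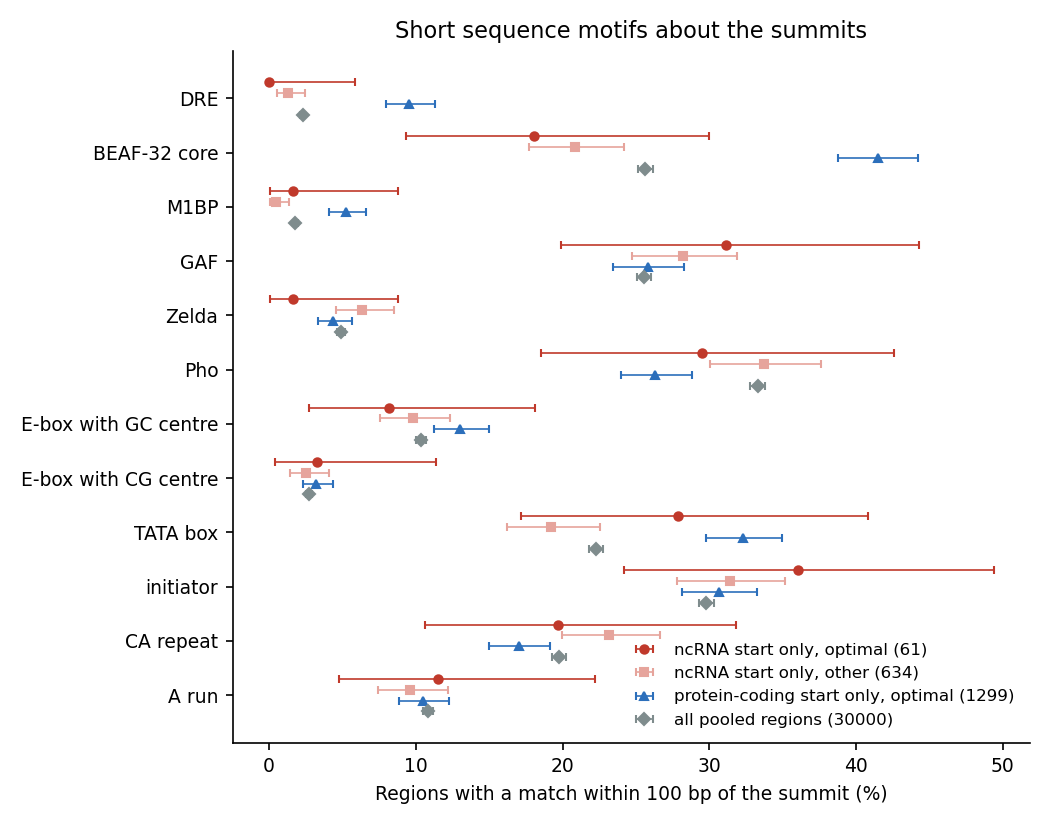
Percentage of regions with a match to each of 12 short motifs within 100 bp of the summit (x), for optimal members, other members, optimal regions at protein-coding starts only and all pooled regions, with 95% exact intervals. Optimal members and the optimal protein-coding set are far apart for DRE (0% and 9.55%) and for the BEAF-32 core (18% and 41.5%). The sets are close for most other motifs, and the optimal members' intervals hold the share over all pooled regions for all 12.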

How the data were processed

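ChIP-seq regions of 2 biological replicates were used, in 4 lists that the authors deposited in the narrowPeak layout on dm6: 30000 regions for each replicate, 30000 for both pooled, and the 2478 optimal ones. Per the deposited text, the first 3 served as input for IDR and mix peaks with background. The aligner, peak caller and IDR threshold used were not given in the sources used here. Signal from the authors' caller has no stated scale and served to rank or describe regions of 1 list. The −log10 of the q-value, as deposited, is at its highest value, 3.53, for most strong members and was not used. Depth is unknown.

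Summits were compared with all transcript starts of Ensembl release 115. Sequence came from the RefSeq copy of the same assembly, and every region ended within its chromosomes. Replicate regions were matched by 1 bp of overlap, taking the strongest. Shares have 95% exact (Clopper-Pearson) intervals. Scripts used Python 3.11.15, pandas 2.3.3, numpy 2.4.6 and SciPy 1.17.1, and were checked on simulated regions. Alternatives were other windows and start definitions, each replicate's own list, stricter optimal lists, and regions left out by interval, transposable element or other RNA start. Leaving out microRNA entries, using RefSeq starts and counting core promoter letters at the starts were chosen after seeing the data.

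The members, the gene list and the motifs were chosen with earlier results of these data known. Named regions are the 12 strongest optimal members, the strongest per arm, those at each limit, the 27 listed genes, the 3 optimal members with the largest ratio of replicate ranks and the gene with most members; further optimal members were named after their values were seen.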

Additional observations from a re-analysis of the deposited data

How the results depend on the processing

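The number of regions at ncRNA starts only was 695, and 360 with a window of 200 bp; it was 685 in each replicate's own list, and 641 to 1031 under the other alternatives. Their optimal share of 8.78% was 11.7% with 200 bp, 4.46% for the 1239 strongest of the optimal list, 6.33% for optimal regions among the strongest of both replicates, and 8.32 to 10.2% in the replicates' own lists. The stricter lists hold 1239 and 1709 of the 30000 pooled regions, against 2478 in the full optimal list. This lowers every share, so the 8.26% over all regions is not the share to set beside these values. The difference from protein-coding starts only, −7.68 percentage points, kept its sign under every alternative run: it was −5.84 with 1000 bp, −8.38 with the 5′ end of the gene only, −3.76 for the 1239 strongest, −4.80 for regions strong in both replicates, and −8.01 to −7.39 in the replicates' own lists. Genes with a member numbered 594, 333 with 200 bp, 787 with 1000 bp, and 587 to 591 in the replicates' own lists. Genes with an optimal member numbered 61, 42 with 200 bp, 88 with 1000 bp, 31 among the 1239 strongest, and 57 to 69 in the replicates' own lists. The median signal of optimal members, 189, was 177 to 198 under its alternatives. Of 24 motif shares with 50 or 200 bp on each side, 12 moved beyond their interval, as a window of another length holds more or fewer letters; the DRE intervals of optimal members and the optimal protein-coding set overlapped with 50 bp. No paired analysis was possible because there is 1 group. Read depth is unknown. No control was analysed here, and whether the authors' calling used one is not stated.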
